A study of Mus musculus with 10 samples.

Results

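The loci of 5 genes of muscle structure and energy supply, Acta1, Des, Ttn, Ckm and Cdh15, were examined for binding of the transcription factors MyoD and Myf5 and for acetylation of histone H4 (H4Ac). They were taken by position: every peak that touched 1 of 5 fixed windows of the mouse build mm9 belonged to a locus, whatever its strength. This gave 50 of the 241128 peaks in the 7 lists used here. The cells were embryonic mouse fibroblasts of the genotype MyoD-/-; Myf5-/-, shared by all groups, so they lack both factors of their own. They were given MyoD, Myf5 or green fluorescent protein (GFP) by lentivirus, were placed in differentiation medium with insulin and transferrin 24 h after infection and were collected 20 h after that. The groups were MyoD chromatin immunoprecipitation (ChIP) from cells with MyoD, Myf5 ChIP from cells with Myf5, and H4Ac ChIP from cells with MyoD, with Myf5 and with GFP. The same MyoD and Myf5 antibodies used on cells with GFP gave 2 mock groups, and 3 inputs had no list used here. The factor came from a virus in cells that do not make it themselves, so its amount need not be that of muscle cells.

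Both factors belong to the basic helix-loop-helix family and commit cells to skeletal muscle. They bind DNA as dimers with E proteins at E-boxes, the motif CANNTG, with CAGCTG and CAGGTG as favoured forms. Acta1 encodes skeletal muscle alpha-actin of the thin filament, and Des encodes desmin, the intermediate filament that ties myofibrils together. Ttn encodes titin, the elastic protein that runs from the Z-disc to the M-band of the sarcomere. Ckm encodes the muscle form of creatine kinase, which restores ATP from phosphocreatine, and Cdh15 encodes M-cadherin, an adhesion protein of myoblasts and satellite cells. Acetylation of histone H4 marks active chromatin.

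The windows were chr8:126400000-126435000 for Acta1, chr1:75335000-75380000 for Des, chr2:76520000-76850000 for Ttn, chr7:19975000-20025000 for Ckm and chr8:125350000-125405000 for Cdh15. The lists name no genes, and no mm9 annotation was used here, so no peak below is placed at a promoter, an exon or an intron. Each window was longer than its gene, whose lengths in the RefSeq annotation of GRCm38 are 3018 bp for Acta1, 8288 bp for Des, 278578 bp for Ttn, 10490 bp for Ckm and 19024 bp for Cdh15. The flanking protein-coding genes there, in order of start, are Ccsap and Nup133 for Acta1, Dnpep and Speg for Des, Plekha3 and Ccdc141 for Ttn, Klc3 and Mark4 for Ckm, and Acsf3 and Ankrd11 for Cdh15. Whether a peak in a window acts on the named gene or on such a neighbour was not tested.

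The promoters of the 5 genes are shown because E-boxes are the sequences that both factors read. Each line gives the 250 bases before the start site from RefSeq, 5′ to 3′ on the strand of the gene, with every CANNTG in capitals. All 5 symbols matched the promoter table. These positions are in GRCm38 and cannot be compared with the mm9 positions of the peaks.
Acta1 (GRCm38.p6, chr8:123894776-123895025, minus strand): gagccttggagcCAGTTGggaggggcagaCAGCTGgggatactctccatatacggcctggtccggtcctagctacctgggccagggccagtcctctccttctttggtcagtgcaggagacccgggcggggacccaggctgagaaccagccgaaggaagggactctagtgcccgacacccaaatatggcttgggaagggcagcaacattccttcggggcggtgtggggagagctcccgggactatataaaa
Des (GRCm38.p6, chr1:75360042-75360291, plus strand): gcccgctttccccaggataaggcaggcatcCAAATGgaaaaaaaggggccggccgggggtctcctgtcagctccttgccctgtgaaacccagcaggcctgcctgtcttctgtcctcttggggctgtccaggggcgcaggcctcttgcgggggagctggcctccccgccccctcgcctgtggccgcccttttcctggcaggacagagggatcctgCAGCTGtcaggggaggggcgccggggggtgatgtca
Ttn (GRCm38.p6, chr2:76982548-76982797, minus strand): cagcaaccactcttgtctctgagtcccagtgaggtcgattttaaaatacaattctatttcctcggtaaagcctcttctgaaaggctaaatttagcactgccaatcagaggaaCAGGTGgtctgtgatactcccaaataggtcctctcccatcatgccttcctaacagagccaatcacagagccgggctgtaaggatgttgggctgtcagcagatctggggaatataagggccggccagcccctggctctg
Ckm (GRCm38.p6, chr7:19410844-19411093, plus strand): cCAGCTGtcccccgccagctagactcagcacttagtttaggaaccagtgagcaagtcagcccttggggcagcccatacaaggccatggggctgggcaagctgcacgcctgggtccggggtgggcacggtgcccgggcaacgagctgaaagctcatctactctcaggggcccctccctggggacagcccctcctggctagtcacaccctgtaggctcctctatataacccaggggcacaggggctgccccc
Cdh15 (GRCm38.p6, chr8:122848124-122848373, plus strand): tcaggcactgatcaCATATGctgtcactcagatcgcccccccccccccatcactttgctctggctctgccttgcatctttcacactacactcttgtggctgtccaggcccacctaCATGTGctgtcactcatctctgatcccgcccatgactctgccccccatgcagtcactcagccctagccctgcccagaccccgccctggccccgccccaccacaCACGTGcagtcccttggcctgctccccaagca

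Matches were sought on both strands in the table's full window of 300 bases, which also holds 50 bases after the start. The forms CAGCTG and CAGGTG also match CANNTG itself. The first, CAGCTG, stood in 3 of the 5 promoters, once each in Acta1, Des and Ckm, against 16.3% of all 32851 promoters in the table. In the printed stretches its first base lies 221 bases before the start of Acta1, 36 before that of Des and 249 before that of Ckm. CAGGTG, on either strand, stood in 1 of 5, Ttn, with its first base 138 bases before the start, against 20.2% of all promoters. Cdh15 had neither form and held 4 other CANNTG matches in its window. CANNTG of any kind stood in 5 of 5, against 72.3% of all promoters. A list of 45 other muscle genes, among them Actn2, Myh3, Tnnt3 and Eno3, had 34 in the table, with 39 promoters. Of these promoters 19 held CAGCTG, 11 held CAGGTG and 33 held any CANNTG. Counted by gene, with a match in any of its promoters, these were 17, 10 and 29 of 34. A match is a stretch of letters and does not show that a factor was bound there.

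Both factors had peaks at every one of the 5 loci, and every MyoD peak was matched by a Myf5 peak. There were 18 MyoD peaks and 27 Myf5 peaks, and no mock peak of either antibody. The whole mock lists are short, at 942 peaks for MyoD and 1359 for Myf5, or 0.0366 and 0.0527 per 100 kb. Windows without a mock peak are thus common, and the absence of mock peaks is not particular to these loci. Of the MyoD peaks 18 of 18 overlapped a Myf5 peak, against 97.5% of the whole MyoD list. Of the Myf5 peaks 16 of 27 overlapped a MyoD peak, against 45.9% of the whole Myf5 list. The first share is close to its background, so the pairing of MyoD with Myf5 peaks is not particular to these loci. Every group is represented by a single list (by their titles, those of the factors join 2 replicates), so there is no replicate error, no test and no p-value across replicates.

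Strength is given as the authors' maximum read coverage in a peak, with its rank in its own list, where rank 1 is the strongest. Percentages in parentheses give that rank as a share of the list. The lists have different lengths and unknown depths, so coverage and rank are not compared between lists. The peaks at the 5 loci had a median coverage of 74.5 for MyoD, against 49 in the whole list, and of 93 for Myf5, against 55 in the whole list. Among the strongest 10% of their list stood 4 of 18 MyoD peaks, with a background of 10.0%, and 5 of 27 Myf5 peaks, with a background of 10.1%. These peaks lay at Acta1, Ttn and Cdh15. Des and Ckm had none of them in either list.

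**Figure D1:**
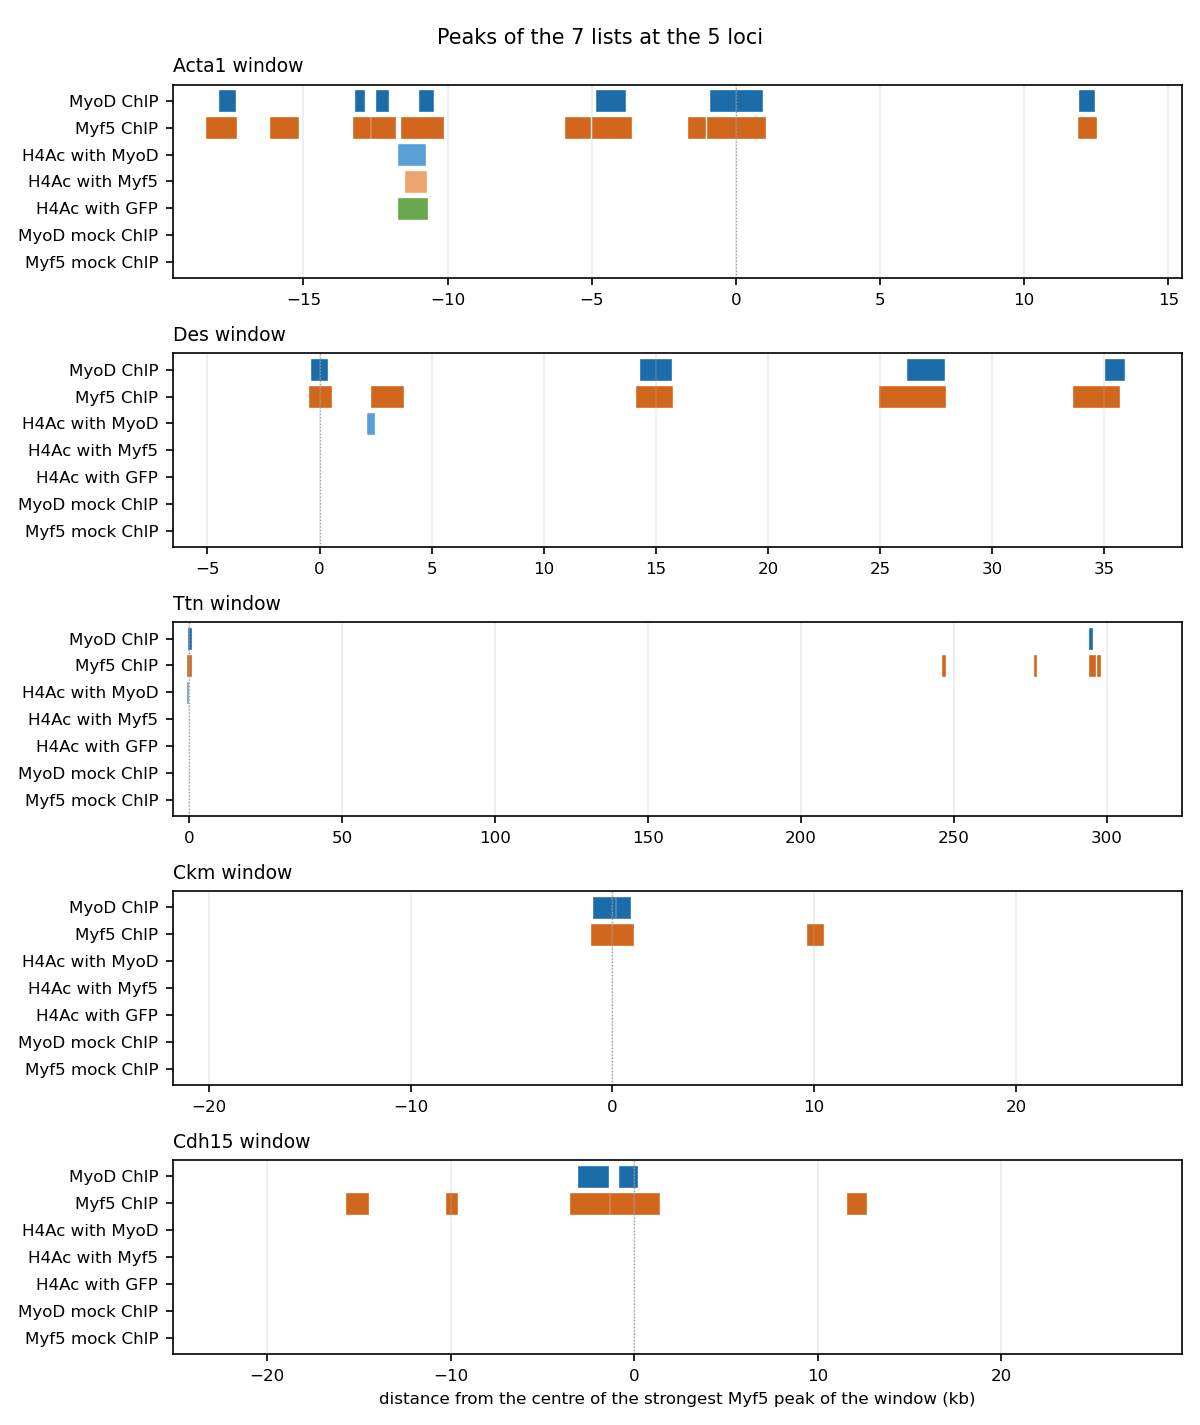
Peaks of the 7 lists (rows) in the window of each locus (panels). The horizontal axis is the distance in kb from the centre of the strongest Myf5 peak of that window, and each bar spans 1 peak to scale. Every MyoD bar stands over a Myf5 bar, the mock rows are empty, and H4Ac bars appear at Acta1 with MyoD, Myf5 and GFP and at Des and Ttn with MyoD alone.

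**Figure D2:**
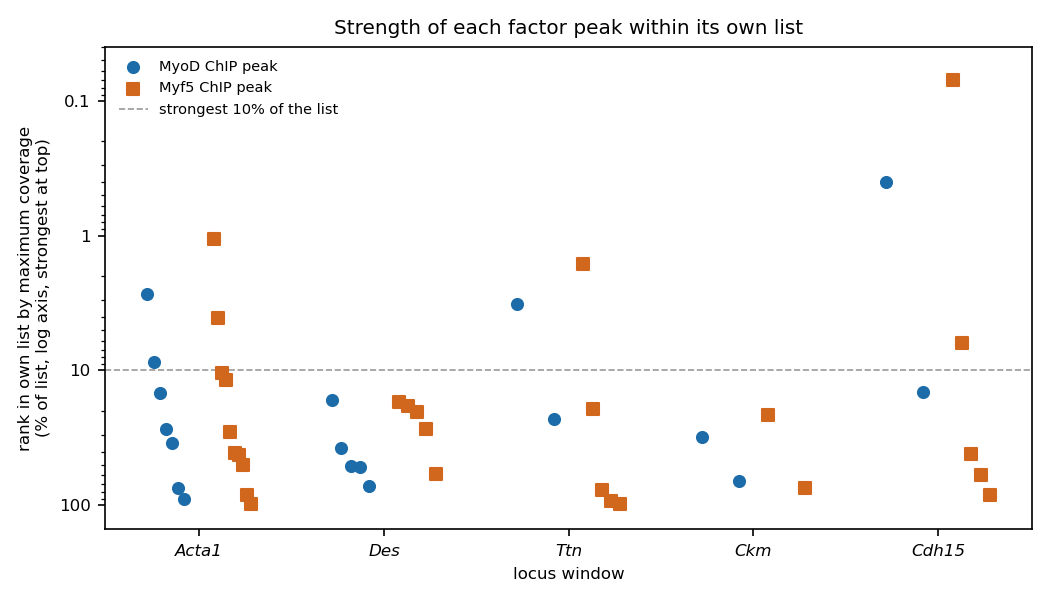
Rank of each MyoD peak (circles) and Myf5 peak (squares) in its own list by maximum coverage, as a percent of the list on a log axis with the strongest at the top, for each locus. Points are single peaks, and the dashed line marks the strongest 10%. The highest points are at Cdh15, at 0.4% for MyoD and 0.0704% for Myf5, and no point of Des or Ckm lies above the line.

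Acta1, the thin filament gene, had the densest binding. Its window of 35001 bp held 7 MyoD peaks and 10 Myf5 peaks, or 20 and 28.6 peaks per 100 kb, against 1.75 and 3.64 over each whole list. When each chromosome, from position 3000000 to its last peak, was divided into tiles of the same length, 0.189% of tiles held at least 7 MyoD peaks and 0.268% held at least 10 Myf5 peaks. MyoD peaks covered 14.7% of the window and Myf5 peaks 29.6%.

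The strongest site at Acta1 carried a MyoD peak at 126418627 to 126420421 with a coverage of 278, rank 1211 of 45015 (2.69%). The Myf5 peak there ran from 126418513 to 126420543 with a coverage of 668, rank 991 of 93787 (1.06%). The 2 centres lay 4 bp apart. This was a broad site in both lists, at 1795 bp for MyoD and 2031 bp for Myf5, against list medians of 672 and 757 bp.

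The next site by MyoD coverage lay at 126401609 to 126402172, with a coverage of 160 (8.65%), and its Myf5 peak at 126401148 to 126402190 had a coverage of 366 (4.06%). Then came a MyoD peak at 126408537 to 126409037 with a coverage of 117 (14.8%), and a Myf5 peak at 126407926 to 126409352 with 192 (11.8%). These 3 sites were the strongest of the locus for MyoD, and the order differed for Myf5. The Myf5 peak next in coverage stood at 126406888 to 126407718 with 207 (10.5%), over a MyoD peak at 126407049 to 126407477 with 78 (27.1%). The site at 126414674 to 126415686 had a MyoD coverage of 65 (34.7%), and its Myf5 peak at 126414545 to 126415901 had 93 (28.6%).

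The other 2 MyoD peaks of the Acta1 window had coverages of 30 and 35, close to their cutoffs of 28 and 27. The other 5 Myf5 peaks had coverages of 28 to 67, and 3 of these, at 28, 33 and 55, had no MyoD peak. Those without MyoD were thus at or below the median coverage of the Myf5 list, 55, and the other 2, at 64 and 67, were above it.

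Acta1 was also the locus with H4Ac in every cell population. In cells with MyoD the H4Ac peak ran from 126407821 to 126408753 with a coverage of 59 (12.2%), 2.46 times its cutoff of 24. In cells with Myf5 it ran from 126408065 to 126408787 with a coverage of 47 (27%), 1.62 times its cutoff of 29. In cells with GFP it ran from 126407821 to 126408799 with a coverage of 51 (24.3%), 1.82 times its cutoff of 28. H4Ac was therefore called here without either factor, and the region is not a gain. It overlapped the MyoD peak of coverage 117 and the Myf5 peak of coverage 192, and not the strongest site of the locus, which lay 9874 bp from it in cells with MyoD.

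Des, the desmin gene, had several sites of middling strength. Its window of 45001 bp held 5 MyoD and 5 Myf5 peaks, and 2.51% of tiles of that length held at least 5 MyoD peaks while 11.8% held at least 5 Myf5 peaks. The strongest was the MyoD peak at 75341158 to 75341858 with a coverage of 109 (16.6%), under a Myf5 peak at 75341050 to 75342032 with 144 (17.2%).

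Further along, 2 MyoD peaks with only 4 bp between them lay at 75355823 to 75356479 (coverage 61, 37.9%) and at 75356484 to 75357191 (coverage 48, 51%). A single Myf5 peak at 75355671 to 75357275, with a coverage of 97 (27.4%), spanned both. The MyoD peak at 75367741 to 75369365 had a coverage of 47 (52.3%), inside a Myf5 peak of 2942 bp at 75366487 to 75369428 with 126 (20.2%). That Myf5 peak was the widest of the 45 factor peaks at the 5 loci.

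The MyoD peak at 75376545 to 75377429 had a coverage of 36 (72.4%), and the Myf5 peak at 75375131 to 75377183 had 137 (18.3%). Their centres were 830 bp apart, the largest such distance of the 18 pairs, and the MyoD peak ran past the end of the Myf5 peak. The 2 lists therefore share an overlap at this site rather than a common centre. The remaining Myf5 peak, from 75343846 to 75345260 (coverage 47, 58.6%), was not matched by MyoD.

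An H4Ac peak was called at Des in cells with MyoD, and none in cells with Myf5 or with GFP. It ran from 75343671 to 75343950 with a coverage of 27 (58.1%), 1.12 times its cutoff of 24. It overlapped the Myf5 peak of coverage 47 and no MyoD peak, and the nearest MyoD peak was 1813 bp away. The cutoffs in the same class of GC content were 29 in the list with Myf5 and 28 in the list with GFP, both above 27. Depths are unknown, so the coverage of 1 list cannot be held against the cutoff of another. The absence of this peak from those lists does not show a lower H4Ac level there.

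Ttn, the titin gene, had few peaks over its long window, with 1 strong site near the lower end. The window of 330001 bp held 2 MyoD and 5 Myf5 peaks, or 0.606 and 1.52 per 100 kb. Of tiles of that length, 66.8% held at least 2 MyoD peaks and 63.2% at least 5 Myf5 peaks, so these counts are common ones. The strong site carried a MyoD peak at 76524865 to 76525883 with a coverage of 257, rank 1445 (3.21%), and a Myf5 peak at 76524698 to 76526009 with a coverage of 559, rank 1520 (1.62%). The centres lay 20 bp apart.

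The other MyoD peak at Ttn lay at 76819682 to 76820459 with a coverage of 88 (22.8%), inside a Myf5 peak at 76819632 to 76821483 with 131 (19.3%). Between the 2 MyoD peaks were 293798 bp with no MyoD peak. The remaining Myf5 peaks had no MyoD peak and were weak, with coverages of 30 at 76771597 to 76772341, 28 at 76801764 to 76802104 and 36 at 76822344 to 76823049. All 3 ranked low in the Myf5 list, the first at 92.4%, the next at 97.7% and the last at 77.1%.

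The strong Ttn site carried H4Ac in cells with MyoD, and no H4Ac peak was listed in the window with Myf5 or with GFP. The peak ran from 76524731 to 76525121 with a coverage of 31 (44.5%), 1.41 times its cutoff of 22. The cutoffs of the same GC class were 27 with Myf5 and 26 with GFP, both below 31, with the same limit of unknown depth. The nearest H4Ac peaks of those populations lay 13539 and 13601 bp away. This was the only one of the 5 loci where an H4Ac peak gained with MyoD, meaning one that overlaps no peak of cells with GFP, coincided with a MyoD peak. The size of the difference between populations could not be measured, since a list holds no value where no peak was called.

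Ckm, the creatine kinase gene, had 1 site for both factors and no H4Ac in its window, and a stronger site lay just outside it. In its window of 50001 bp the MyoD peaks at 19995836 to 19996919 (coverage 39, 65.8%) and at 19996938 to 19997657 (coverage 71, 31%) were 18 bp apart. A Myf5 peak of 2092 bp at 19995732 to 19997823, with a coverage of 121 (21.3%), spanned both. A weak Myf5 peak of coverage 37 (74.9%), from 20006396 to 20007205, was not matched by MyoD. Of tiles of the same length, 22.4% held at least 2 MyoD peaks and 40.7% at least 2 Myf5 peaks. The H4Ac peaks nearest to the stronger MyoD peak lay 46648 bp away with MyoD, 46669 bp with Myf5 and 51889 bp with GFP.

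Cdh15, the M-cadherin gene, had the strongest binding of the 5 loci, also with no H4Ac peak. Its strongest MyoD peak, at 125374312 to 125375296, had a coverage of 528 and rank 180 of 45015 (0.4%). The Myf5 peak there, at 125373820 to 125376480, had a coverage of 1534 and rank 66 of 93787 (0.0704%). Beside it, a MyoD peak at 125372062 to 125373709 with a coverage of 119 (14.4%) lay inside a Myf5 peak at 125371637 to 125373745 with 286 (6.25%).

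The other 3 Myf5 peaks at Cdh15 had no MyoD peak. They ran from 125359420 to 125360610 (coverage 66, 41.3%), from 125386749 to 125387767 (46, 59.9%) and from 125364901 to 125365467 (33, 84.2%). The window of 55001 bp thus had 2 MyoD and 5 Myf5 peaks, and 24.6% of tiles of that length held at least 2 MyoD peaks and 16.3% at least 5 Myf5 peaks. Cdh15 stood out by the strength of 1 site and not by the number of peaks.

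At the strongest Cdh15 site the control coverage was 4 beside the MyoD peak and 29 beside the Myf5 peak. A control coverage of 29 or more was found at 0.0128% of Myf5 peaks, 12 of 93787, and the highest in that list was 31. The part of this control signal in the Myf5 coverage of 1534 was not tested. Over the 5 loci, control coverage was 2 to 9 at MyoD peaks, with a median of 5.5 against 5 in the list, and 7 to 29 at Myf5 peaks, with a median of 12 against 11.

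No H4Ac peak was listed within 55208 bp of the strongest Cdh15 MyoD peak in cells with MyoD, 55221 bp with Myf5 or 54730 bp with GFP. Of the 453 strongest MyoD peaks, about 1% of that list, 55.6% overlapped an H4Ac peak in cells with MyoD, against 18.6% of the list. Of the 937 strongest Myf5 peaks, 25.8% overlapped one in cells with Myf5, against 11.9% of that list. Sites without H4Ac, such as this one, were the minority among the strongest MyoD peaks and the majority among those of Myf5. Both MyoD peaks of the locus fell in the class with the highest GC content, where the H4Ac cutoffs were also the highest, at 26 with MyoD, 31 with Myf5 and 30 with GFP.

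**Figure D3:**
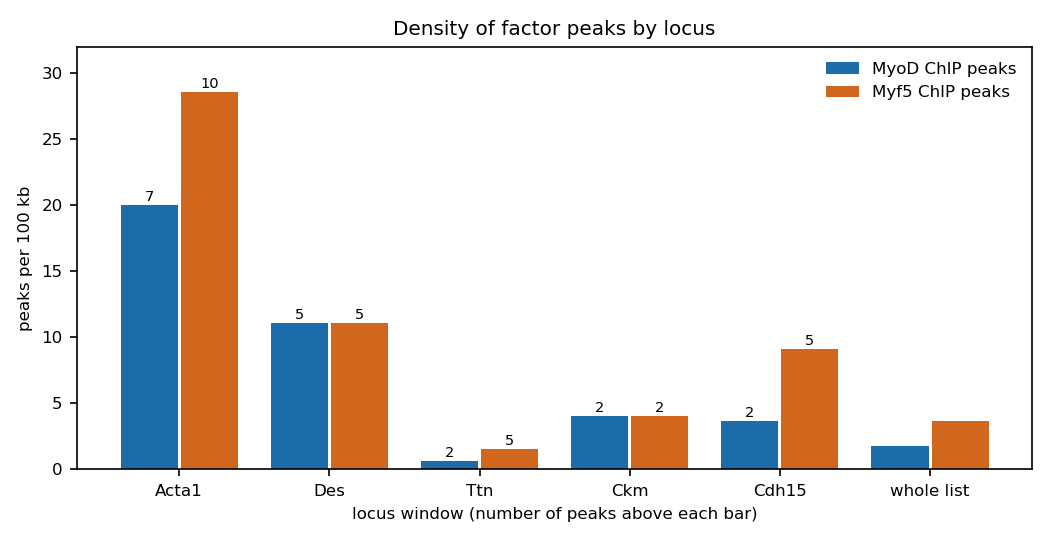
MyoD peaks and Myf5 peaks per 100 kb in each window and over the whole list (bars, left and right of each pair), with the number of peaks above each bar. Acta1 reaches 20 for MyoD and 28.6 for Myf5, against 1.75 and 3.64 for the whole lists, and Ttn lies below the whole lists at 0.606 and 1.52.

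Across the 5 loci most factor peaks had no H4Ac. Of the MyoD peaks, 2 of 18 overlapped an H4Ac peak in cells with MyoD, 1 of 18 in cells with Myf5 and 1 of 18 in cells with GFP. The backgrounds over the whole MyoD list were 18.6%, 15.1% and 14.4%. Of the Myf5 peaks, 3 of 27 overlapped an H4Ac peak with MyoD, 1 of 27 with Myf5 and 1 of 27 with GFP, against 13.6%, 11.9% and 11.6% of the whole Myf5 list. The counts are small, and no share is read as different from its background.

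Seen from H4Ac, 2 of the 3 peaks in cells with MyoD were gained, at Des and Ttn, against 30.7% of that whole list. Of these 2, the one at Ttn overlapped a MyoD peak, against 36.7% of all peaks gained with MyoD. In cells with Myf5 0 of 1 peak was gained, against 31.9% of that list, so none could lie at a Myf5 peak, for which the background is 35.4%. With a floor of 1.5 times the cutoff neither gained peak was counted, leaving 0, and with windows longer by 10 kb on each side 5 peaks were gained with MyoD and 1 with Myf5. These are counts of peaks and not of separate sites. The H4Ac peaks added beside Ttn, with MyoD and with Myf5, lay at the same factor site, and the one added beside Acta1 lay directly beside a GFP peak. The widths were 933, 280 and 391 bp in cells with MyoD at Acta1, Des and Ttn, against a list median of 264 bp.

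**Figure D4:**
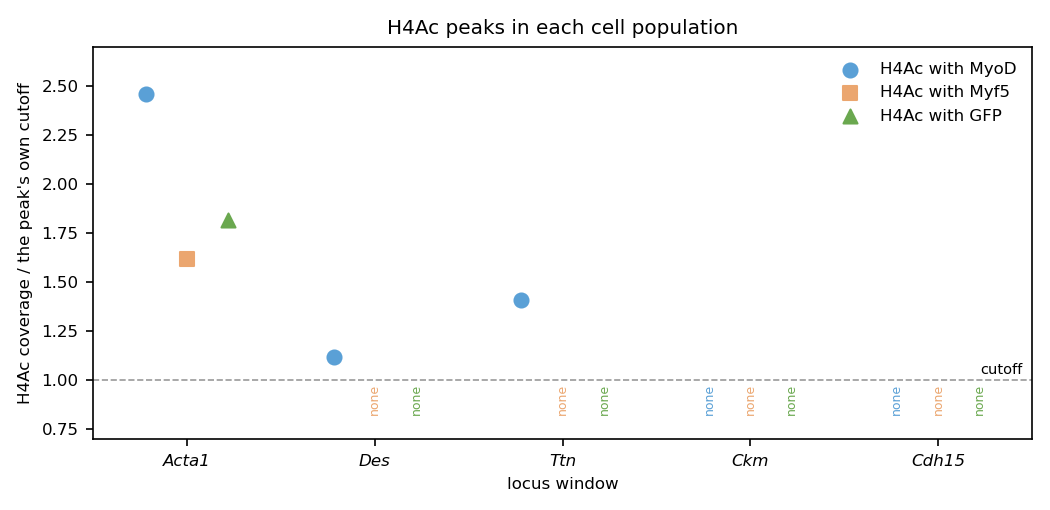
H4Ac coverage divided by the cutoff of the peak, for each locus in cells with MyoD (circles), Myf5 (squares) and GFP (triangles). The dashed line is the cutoff, and "none" marks a population with no H4Ac peak in the window. Acta1 has a peak in all 3 populations at 2.46, 1.62 and 1.82, Des and Ttn have one with MyoD at 1.12 and 1.41, and Ckm and Cdh15 have none.

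The 18 MyoD peaks formed 18 pairs of overlapping peaks with 16 Myf5 peaks. Across these pairs MyoD and Myf5 coverage had a Spearman correlation of 0.875, beside 0.792 across all 44305 overlapping pairs of the 2 lists. This is a description across sites that share their libraries, and 2 of the Myf5 peaks enter it more than once. In 17 of the 18 pairs the MyoD peak lay wholly inside the Myf5 peak, against 60.2% of all overlapping pairs. The centres were within 100 bp in 7 of the 18 pairs, against 56.9% of all overlapping pairs. The median distance between centres was 208 bp at the 5 loci and 83 bp over all pairs, and the lengths of the peaks were not matched.

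The 11 Myf5 peaks without a MyoD peak were the weaker ones. Their coverage ran from 28 to 66 with a median of 36, and that of the 16 with a MyoD peak ran from 64 to 1534 with a median of 140.5. The ranges overlap only between 64 and 66. The whole Myf5 list has medians of 39 without and 111 with a MyoD peak, so the same difference runs through that list.

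The peaks at these loci were also rich in GC. The classes above 0.5 held 12 of 18 MyoD peaks, against 16.5% of the whole list, and 16 of 27 Myf5 peaks, against 14.9%. Ttn was the exception, with all its factor peaks in the classes up to 0.5. The GC content of the windows themselves was not measured, and neighbouring peaks of 1 window share it.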

How the data were processed

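Of 10 samples, 7 had a peak list and 3 inputs had none used here. Per the labels' protocols, factor chromatin was fixed for 11 min and sonicated. H4Ac chromatin was native, and 15 units of micrococcal nuclease acted on it for 18 min. The tools BWA 0.7.5 and CASAVA 1.8.2 are named in the submitters' processing notes, as are mm9 and hg19, with no role. Positions were read as mm9. Which peak caller was run, and what the control was, is not given in the sources used. The coverage (signal) in each deposited list is the maximum in the peak, in whole numbers, with a cutoff for each of 5 classes of GC content. The headers name no scaling, and depth is unknown. The p-value per peak is the authors' own (9.52e-06 or lower outside the mock lists) and was not used.

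Groups were taken from the labels. Peaks were assigned to a window and to each other by an overlap of at least 1 bp, and ranks are by maximum coverage, with ties given the best rank. Tiles run from position 3000000 to the last peak of each chromosome. Overlap counting was tested on simulated peaks with planted overlaps. There is no replicate list, so comparisons are counts beside the same share of the whole list. The text names all peaks of a list at a locus up to 5, otherwise the 5 strongest by coverage. The windows, the lists of genes and the alternatives were chosen with earlier results of these data known. Peaks near the other muscle genes were not counted, for want of an mm9 annotation. Scripts ran in Python 3.11.15 (pandas 2.3.3, numpy 2.4.6, matplotlib 3.10.9).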

Additional observations from a re-analysis of the deposited data

How the results depend on the processing

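Of 93 recomputed counts, 81 stayed within 1.5 times the reported count. This tally is not a measure of stability, since some alternatives could not change the count. Equal length, for example, left the MyoD list and the GFP H4Ac list whole, each being the shortest of its kind. With the factor lists held to equal length (the strongest 45015), the Myf5 peaks at the loci numbered 17 in place of 27. With windows extended by 10 kb on each side, H4Ac peaks numbered 8 with MyoD, 4 with Myf5 and 3 with GFP, those gained with MyoD 5 (4 at a MyoD peak) and those gained with Myf5 1 (1 at a Myf5 peak). These are counts of peaks and not of separate sites. Of the added peaks gained with MyoD, those at 76858513 to 76858665 and 76859000 to 76859228 beside Ttn lay at the same MyoD peak. The other, at 126391348 to 126391575 beside Acta1, began just past the end, at 126391345, of a GFP peak. With only the peaks up to the median rank of each list, 1 H4Ac peak gained with MyoD was counted, at Ttn. With a floor of 1.5 times the cutoff, H4Ac peaks with MyoD numbered 1, and those gained with MyoD 0, of which 0 lay at a MyoD peak. The gained peaks at Des and Ttn had 1.12 and 1.41 times their cutoff. The counts of MyoD peaks and of peaks among the strongest 10% stayed within 1.5 times under each alternative. Ranks were kept from the whole lists, so leaving out weaker peaks by rank or by the floor could not change the counts among the strongest 10%. No paired analysis was possible because each group has 1 list. Depth is unknown, so the absence of a peak is the absence of a call.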

Other observations

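Just outside the windows, within 10 kb of their bounds, lay more H4Ac peaks. Near the Ttn window, a site of both factors on chromosome 2 had a MyoD peak at 76858330 to 76859211 (coverage 89, 22.4% of the list) and a Myf5 peak at 76858202 to 76859293 (coverage 234, 8.76%). It carried H4Ac peaks at 76858513 to 76858665 (coverage 22) and 76859000 to 76859228 (coverage 23) in cells with MyoD and at 76858994 to 76859215 (coverage 23) in cells with Myf5, and none in cells with GFP. These coverages are close to the cutoffs of 19 with MyoD and 20 with Myf5, and the cutoff of the same GC class with GFP was 21. On the other side of the Ttn window, H4Ac was strong in each population, with a coverage of 106 at 76510418 to 76511137 with MyoD, 119 at 76510282 to 76511192 with Myf5 and 80 at 76510432 to 76511130 with GFP.

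Near the Acta1 window on chromosome 8, a MyoD peak at 126390953 to 126391516 (coverage 44) lay inside a Myf5 peak at 126390862 to 126391588 (coverage 60). Both overlapped H4Ac peaks with MyoD (coverages 32 and 25), Myf5 (35) and GFP (38). Near the Ckm window on chromosome 7, a MyoD peak at 19974102 to 19974840 (coverage 83) and a Myf5 peak at 19973905 to 19974937 (coverage 124) had no H4Ac peak in any population. Both had a higher coverage than any peak of their own list inside that window. These positions were chosen after their values were seen.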
